A study of Homo sapiens with 15 samples.

Results

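VCaP-CT-BR-ER and VCaP-CT-ER are 2 sublines of the prostate cancer cell line VCaP that both grew despite enzalutamide (ENZ), and only the first had become insensitive to bicalutamide before. They were compared here by bulk RNA-seq, with 3 libraries of CT-BR-ER and 3 of CT-ER, which are 6 of the 15 libraries of the series. Members were chosen by the subline in the sample titles. Both sublines descended from VCaP-T, kept for 7 months in charcoal-stripped serum with 10 nM testosterone, through VCaP-CT, kept for 10 further months at 0.1 nM testosterone. CT-ER was obtained from CT under 10 µM ENZ, and CT-BR-ER from CT under bicalutamide and then ENZ. The dose of bicalutamide, and that of ENZ in CT-BR-ER, are not given in the sources used here. The sample labels list 10 nM testosterone for the second culture step too, and they mention ENZ after bicalutamide also for CT-BR, the subline between CT and CT-BR-ER. The sources describe 1 derivation per subline, and therefore the drug history, the time in culture and the cells that happened to grow out cannot be told apart. The labels call the libraries replicates without tying them to separate derivations. Every p-value below sets a difference against the spread between libraries of the same subline, estimated over all 15 libraries. The spread between separate derivations is not in it.

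VCaP cells carry a fusion of TMPRSS2 with the ETS factor ERG and grow in response to androgen, which switches on genes such as KLK3, the gene of prostate-specific antigen. Bicalutamide and ENZ are antiandrogens of the first and the second generation. Tumours that escape them are known to make or keep more androgen in the cell, to use the glucocorticoid receptor, or to take on gene programmes of other lineages.

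Totals of counted fragments lay between 37108699 and 41182893 in CT-BR-ER and between 39706745 and 46935279 in CT-ER. Genes of the mitochondrial genome took 8.58 to 8.94% of the counts in CT-BR-ER and 9.17 to 9.56% in CT-ER, so that this share moved with the group, and its part in the results was not tested. Pearson correlations of log2 CPM (counts scaled to a common library total) across 12721 genes lay between 0.9959 and 0.9983 within a subline and between 0.9587 and 0.9605 between the sublines, as a description over genes of the same libraries. All 12 prostate epithelial markers had counts in both sublines, with summed levels of 11782 to 12029 CPM in CT-BR-ER and 17885 to 18839 CPM in CT-ER. Most of this gap came from KLK2, 1 of the 12, whose levels are given below. Of the 12 markers, 3 were called higher and 4 lower in CT-BR-ER, with a median log2 fold change of −0.05. The 8 endothelial markers summed to at most 3.35 CPM and the 10 leukocyte markers to at most 2.28 CPM in a library, with CDH5, KDR, CD3E and PTPRC among those at 0 counts in both sublines. Of 12 fibroblast markers, LUM alone brought the sum to between 191 and 249 CPM, and the other members summed to at most 3.3 CPM, with COL1A2 and MYH11 at 0. Several genes that all cells use, such as SMARCB1 and KIFC1, are listed with at most 2 counts in every library of the series, as is TAP1, so that a value of 0 in these files need not mean an unexpressed gene.

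Promoter sequences of 2 neighbouring androgen-induced genes of the kallikrein cluster are shown because both were far lower in CT-BR-ER. Each window is from RefSeq on GRCh38.p14 and runs, on the strand of the gene, from 250 bases before the start of transcription to 50 bases after. Capitals mark a match to GAACANNNAGTGC, a variant of the androgen response element GAACANNNTGTTC, in the KLK3 window (chr19:50854665-50854964, plus strand) and the KLK2 window (chr19:50873189-50873488, plus strand).
KLK3: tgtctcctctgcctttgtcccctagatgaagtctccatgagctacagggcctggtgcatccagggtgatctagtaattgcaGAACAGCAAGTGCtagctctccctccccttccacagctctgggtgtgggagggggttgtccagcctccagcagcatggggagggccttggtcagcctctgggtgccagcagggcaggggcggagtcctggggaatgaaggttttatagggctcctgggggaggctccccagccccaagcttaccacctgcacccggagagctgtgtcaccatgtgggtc
KLK2: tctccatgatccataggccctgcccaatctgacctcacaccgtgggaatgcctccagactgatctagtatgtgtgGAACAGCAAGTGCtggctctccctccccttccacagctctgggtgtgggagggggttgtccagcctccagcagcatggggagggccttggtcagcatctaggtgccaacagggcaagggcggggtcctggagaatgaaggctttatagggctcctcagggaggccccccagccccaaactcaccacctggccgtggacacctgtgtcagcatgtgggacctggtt
Both strands were searched. Relative to the start, the KLK3 match began at base −169 and the KLK2 match at −175. Of 35116 promoter windows of this length, 0.0883% held GAACANNNAGTGC, which was read from the KLK3 window itself, and 0.0228% the consensus GAACANNNTGTTC. A match is a description of these letters and not a measured binding site.

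The sublines differed at many genes and mostly by little. Of 19621 genes tested with edgeR's quasi-likelihood test and Benjamini-Hochberg adjustment, 9014 passed an adjusted p of 0.05, a share of 45.9%. Of these, 4568 (23.3% of the genes tested) were higher and 4446 (22.7%) were lower in CT-BR-ER. The median size of a called difference was 0.47 on the log2 scale, and 5420 of the called genes differed by less than 1.5-fold. At 2-fold or more, 1911 genes were called (9.74%), of which 695 were higher (3.54%) and 1216 lower (6.2%) in CT-BR-ER. The 3 libraries of one subline lay entirely above or below those of the other at 10716 genes (54.6%). Counts of list members or chromosome genes called between these sublines are to be read beside 23.3% higher and 22.7% lower over all genes tested. Where at least 10 counts were required in every library of the series, 15255 genes were tested and 888 were called at 2-fold or more. A gene near 0 in any subline, also in CT-BR, CT or T, was then not tested. The log2 fold changes given below are CT-BR-ER over CT-ER with an approximate standard error (SE), levels are CPM after TMM scaling, and adjusted p-values are those of edgeR. For genes near 0 in one subline, such as A1CF, BEX1, CDH17, CSAG1, DLGAP1 and TENM2, the SE is smaller than counting error alone and overstates the precision. Leaving out a CT-BR-ER library could move the values of CDH17 and DLGAP1 by more than their SEs. Counting took no account of strand, and of the genes named below, exons of BTG1, CANX, CCND1, CD44, DGAT2, DLGAP1, DPYD, FOXA1, HIF1A, JAG1, LEF1, MAML2, MME, NCAM1, OSMR, SOCS2, TNFAIP3, TRPM8, YAP1 and NQO1 overlap exons of other genes, which makes their values uncertain by the reads shared.

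**Figure D1:**
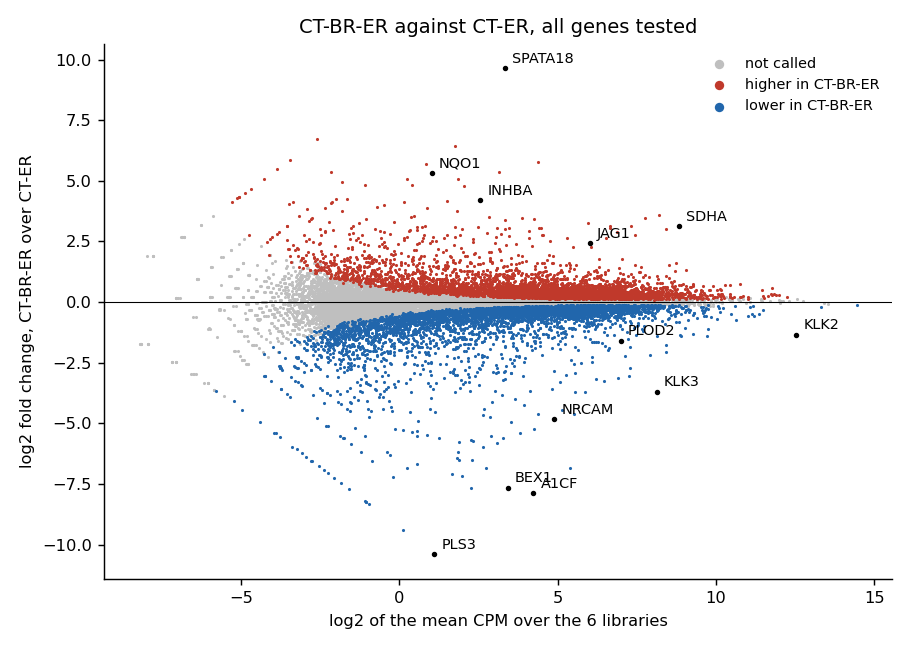
Log2 fold change of CT-BR-ER over CT-ER (y axis) against the log2 of the mean CPM over the 6 libraries (x axis), one point per gene tested, with called genes in red (higher in CT-BR-ER) or blue (lower). The 34 genes tested that had no count in these 6 libraries are not drawn. KLK3 lies at −3.70, SDHA at 3.13, and the farthest labelled genes are SPATA18 and PLS3.

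The kallikreins, secreted proteases of the prostate that androgen induces, differed in opposite ways. KLK3 measured 38.1, 42 and 40 CPM in CT-BR-ER and 527, 535 and 499 CPM in CT-ER, so that each CT-ER library lay far above each CT-BR-ER library (log2 fold change −3.70, SE 0.05, edgeR adjusted p = 6.7e-22). KLK2, the neighbouring kallikrein with the same motif match, measured 3351, 3459 and 3274 CPM in CT-BR-ER and 8444, 8986 and 8175 CPM in CT-ER (−1.34, SE 0.05, edgeR adjusted p = 3.47e-15). Reads of KLK2 and KLK3 can be shared in part, as the sequences are close. KLK4, another kallikrein of the cluster, went the other way, with means of 470.0 CPM in CT-BR-ER and 221 CPM in CT-ER (1.09, SE 0.07, edgeR adjusted p = 1.37e-11).

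The other androgen-induced genes were split as well. Of 48 tested members of a list of them, 17 were higher (35.4%) and 23 lower (47.9%) in CT-BR-ER, beside 23.3% and 22.7% of all genes tested, and their median log2 fold change was −0.13 beside 0.00 over all genes. FKBP5, a co-chaperone induced by androgens and glucocorticoids, measured 162, 155 and 164 CPM in CT-BR-ER and 246, 247 and 258 CPM in CT-ER (−0.64, SE 0.05, edgeR adjusted p = 1.16e-09). TMPRSS2, a membrane protease whose promoter drives ERG in these cells, measured 111, 97 and 98.3 CPM against 88.8, 89.3 and 87.3 CPM (0.21, SE 0.05, edgeR adjusted p = 0.00205), a small difference without overlap of the groups. ERG itself measured 278, 246 and 264 CPM against 272, 282 and 273 CPM, the groups overlapped, and the difference was −0.07 (SE 0.05, edgeR adjusted p = 0.228). SLC45A3, a membrane transporter of prostate epithelium, was lower in CT-BR-ER (−0.57, SE 0.07).

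TRPM8, like KLK4, was higher in CT-BR-ER. TRPM8 encodes a cold-sensing cation channel switched on by androgen, and measured 5.47, 4.8 and 6 CPM in CT-BR-ER and 0.207, 0.376 and 0.323 CPM in CT-ER (4.16, SE 0.14, edgeR adjusted p = 1.38e-15). The values of CT-ER lay below those of every CT-BR-ER library, and both sublines were below the means of CT-BR (89.1 CPM) and CT (203 CPM). Of the transcription factors of prostate epithelium, FOXA1, which opens chromatin, differed by −0.02 (SE 0.05, edgeR adjusted p = 0.763), while HOXB13 was slightly higher in CT-BR-ER (0.35, SE 0.06) and GATA2 slightly lower (−0.25, SE 0.07).

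**Figure D2:**
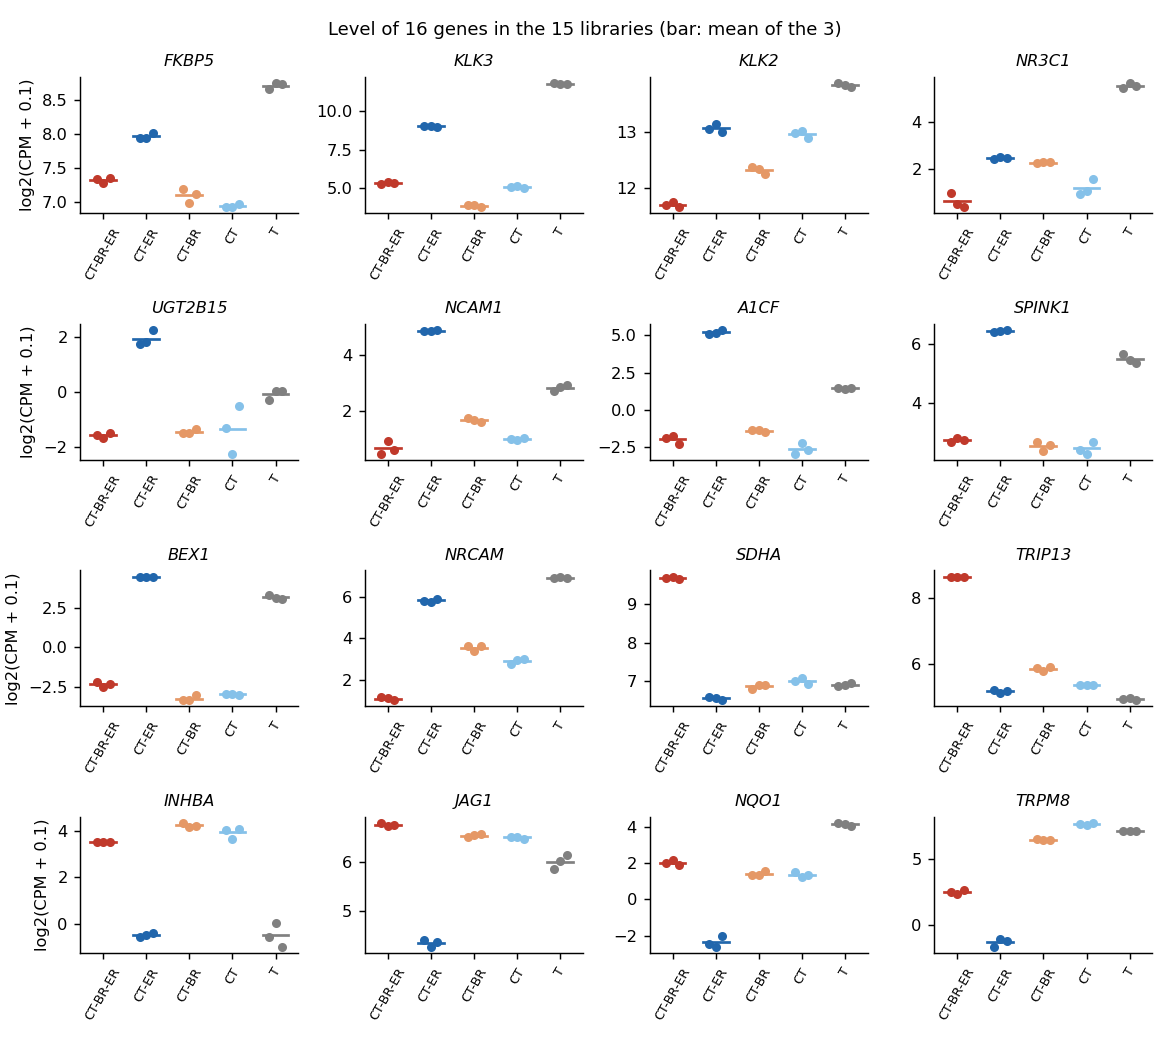
Level of 16 genes as log2(CPM + 0.1), one point per library and one bar per subline for the mean of the 3 log2 values, each panel with its own y axis. KLK3, A1CF, SPINK1, BEX1, NCAM1 and NRCAM are higher in CT-ER (dark blue) than in CT-BR-ER (red), and SDHA and TRIP13 are high in CT-BR-ER alone of the 5 sublines.

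The glucocorticoid and mineralocorticoid receptors and most tested genes of a list induced by glucocorticoids were higher in CT-ER. NR3C1, the glucocorticoid receptor, measured 1.92, 1.36 and 1.23 CPM in CT-BR-ER and 5.4, 5.6 and 5.49 CPM in CT-ER (−1.86, SE 0.14, edgeR adjusted p = 9.5e-10). NR3C2, the mineralocorticoid receptor, measured 1.65, 1.65 and 1.68 CPM against 6.27, 7 and 6.66 CPM (edgeR adjusted p = 1.39e-12). Neither receptor overlapped between the groups, and NR3C1 was low in both beside the mean of 46.2 CPM in T. PGR, the progesterone receptor, was instead higher in CT-BR-ER, at 1.38, 1.08 and 1.07 CPM against 0.29, 0.167 and 0.273 CPM (2.28, SE 0.23, edgeR adjusted p = 6.31e-08). Its exons overlap an antisense gene, and the counts take no account of strand.

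Of 17 tested genes on a list of glucocorticoid-induced genes, 2 were higher (11.8%) and 11 lower (64.7%) in CT-BR-ER, with a median of −0.54. In CT-BR over CT, 4 of these genes were higher and 8 lower (median −0.35), while NR3C1 was higher there. A link between the receptor and the list was not tested. RGS2, a regulator of G-protein signalling, was at 0.389, 0.434 and 0.236 CPM against 2.69, 2.34 and 3.45 CPM (−2.98, SE 0.23, edgeR adjusted p = 7.11e-10). The transcription factors KLF9 (−0.87, SE 0.10) and ZBTB16 (−0.92, SE 0.10) also passed edgeR's threshold. TGFBR3, a co-receptor for TGF-beta, was the gene of this list that was most raised in CT-BR-ER (0.97, SE 0.15, edgeR adjusted p = 2.48e-05). Of 42 tested steroid receptors and cofactors in all, 13 were higher and 16 lower, with a median of −0.02.

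Several enzymes that handle androgens were lower in CT-BR-ER. Of 25 tested genes of androgen synthesis and inactivation, 4 were higher (16%) and 11 lower (44%), beside 23.3% and 22.7% of all genes tested. Their median was −0.41, and 9 of the lower ones differed by 2-fold or more. UGT2B15, which attaches glucuronic acid to androgens for removal, measured 0.243, 0.217 and 0.262 CPM in CT-BR-ER and 3.27, 3.4 and 4.69 CPM in CT-ER (−3.95, SE 0.28, edgeR adjusted p = 2.87e-10). UGT2B17, a close copy with the same role, measured 0.0243, 0.136 and 0.105 CPM against 1.45, 1.4 and 1.74 CPM (−4.09, SE 0.36, edgeR adjusted p = 5.86e-09). Reads of the UGT2B genes can be split between near-identical copies, which makes the share of each uncertain. AKR1C3, which makes testosterone from weaker precursors, measured 1.55, 2.2 and 1.91 CPM against 16.8, 15.9 and 19 CPM (−3.20, SE 0.12, edgeR adjusted p = 3.39e-15), with the same reservation for the AKR1C family. SRD5A1, a 5-alpha-reductase that makes dihydrotestosterone, was higher in CT-BR-ER, at 31.1, 28.7 and 31.5 CPM against 11.9, 13.2 and 13.7 CPM (1.23, SE 0.07, edgeR adjusted p = 2.74e-12), and it lies in the segment of chromosome 5 described below. The other member higher by 2-fold or more was SULT2B1, a steroid sulfotransferase, at 0.437, 0.976 and 1.05 CPM against 0.186, 0.376 and 0.199 CPM (1.65, SE 0.34, edgeR adjusted p = 0.000379). CYP17A1, the enzyme that starts androgen synthesis from precursors, had at most 2 counts in a CT-BR-ER library and at most 5 in a CT-ER library and was not tested.

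Several genes of liver and gut were far lower in CT-BR-ER than in CT-ER. A1CF, a cofactor of apolipoprotein B mRNA editing, measured 0.17, 0.19 and 0.105 CPM in CT-BR-ER and 34.6, 36.3 and 41 CPM in CT-ER (−7.88, SE 0.15, edgeR adjusted p = 5.54e-20). The groups lay far apart, and its exons overlap those of a neighbour. The mean of A1CF was 2.65 CPM in T.

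Further genes of liver and gut showed the same order. SPINK1, a secreted trypsin inhibitor, measured 6.41, 6.97 and 6.76 CPM in CT-BR-ER and 84.9, 87.1 and 89.3 CPM in CT-ER (−3.70, SE 0.09, edgeR adjusted p = 4.51e-18). CDH17, the cadherin of liver and intestine, was at 0.0486, 0.0813 and 0 CPM against 9.19, 8.4 and 10.9 CPM (−7.68, SE 0.29, edgeR adjusted p = 5.47e-15). PGC, a gastric pepsinogen, was at 0.0972, 0 and 0.184 CPM against 7.29, 6.71 and 7.38 CPM (−6.19, SE 0.25, edgeR adjusted p = 2.13e-14). Neither gene overlapped between the sublines, and both were higher still in T, with means of 35.3 CPM for CDH17 and 26.6 CPM for PGC.

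Some genes were looked at after these values had been seen. APOH, a plasma protein that binds phospholipids, measured 0.51, 0.705 and 0.734 CPM in CT-BR-ER and 27.2, 25.4 and 29 CPM in CT-ER (−5.39, SE 0.18). HNF4G, a nuclear receptor of the gut, measured 4.57, 3.66 and 3.72 CPM against 20.6, 19.7 and 22.2 CPM (−2.38, SE 0.10). In a list of liver and gut genes drawn up at that point, 28 were measured, 22 of them called lower and 2 called higher in CT-BR-ER, with a median of −1.85. The higher ones included the intestinal disaccharidase SI (0.47, SE 0.07). As the list was made with values known, its counts are a description. Fewer cells with such a programme and less RNA of it per cell cannot be told apart in bulk libraries.

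Neuronal and neuroendocrine genes were also more often lower in CT-BR-ER. Of 29 tested members of that list, 3 were higher (10.3%) and 13 lower (44.8%), with a median of −0.40. BEX1, a small protein of neural and endocrine cells, measured 0.121, 0.0813 and 0.105 CPM in CT-BR-ER and 21.1, 21.2 and 21.7 CPM in CT-ER (−7.65, SE 0.17, edgeR adjusted p = 7.72e-19). NCAM1, a neural adhesion molecule, measured 1.31, 1.82 and 1.44 CPM against 28.7, 29 and 29.5 CPM (−4.26, SE 0.10, edgeR adjusted p = 1.67e-18). SCG2, a secretogranin of dense-core vesicles, measured 0.437, 0.515 and 0.76 CPM against 11.4, 11.6 and 14 CPM (−4.43, SE 0.17, edgeR adjusted p = 1.08e-14). None of these groups overlapped. SYP, the synaptic vesicle marker of neuroendocrine tumours, was low in both, at 2.11, 2.41 and 1.84 CPM against 4.95, 5.68 and 4.57 CPM (−1.26, SE 0.13, edgeR adjusted p = 4.89e-08), and its exons overlap an antisense gene. CHGA, the other usual marker, had 0 counts in all 6 libraries. The 3 members that were higher in CT-BR-ER were INSM1, a factor of neuroendocrine differentiation (0.85, SE 0.09), the imprinted gene PEG10 (0.65), and the cell-cycle kinase AURKA by little (0.12, SE 0.05, edgeR adjusted p = 0.043).

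Molecules of cell contact and excitability showed some of the largest differences. Of 44 tested genes of cell adhesion and axon guidance, 14 were higher and 18 lower in CT-BR-ER with a median of −0.14, and 8 of the higher and 13 of the lower ones differed by 2-fold or more. NRCAM, an adhesion molecule of axons, measured 2.11, 2.06 and 1.91 CPM in CT-BR-ER and 56.6, 55 and 60.4 CPM in CT-ER (−4.82, SE 0.09, edgeR adjusted p = 5.54e-20). TENM2, a teneurin at synapses, was at 0.0729, 0.136 and 0.105 CPM against 9.84, 9.3 and 10.1 CPM (−6.52, SE 0.20, edgeR adjusted p = 1.49e-16). The groups did not overlap at either gene. NRCAM kept about 2 CPM in CT-BR-ER, while TENM2 lay near the level that 3 counts give.

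Of 45 tested ion channels and neurotransmitter receptors, 9 were higher (20%) and 16 lower (35.6%), with a median of −0.16. KCNQ3, a potassium channel subunit of the M-current, measured 1.75, 1.95 and 1.21 CPM in CT-BR-ER and 39.7, 40 and 40.4 CPM in CT-ER (−4.61, SE 0.12, edgeR adjusted p = 6.11e-18). ADRA2A, an adrenergic receptor, measured 7.39, 6.89 and 7.37 CPM against 53.7, 52.6 and 49.6 CPM (−2.85, SE 0.08, edgeR adjusted p = 4.14e-17). DLGAP1, a scaffold of the postsynaptic density, was at 0.219, 0.0271 and 0.0786 CPM against 13.7, 13.1 and 13.3 CPM (−6.86, SE 0.20, edgeR adjusted p = 1.02e-16). TRPM8, given above, was the channel with the largest difference in the other direction.

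The remaining genes that were lowest in CT-BR-ER relative to CT-ER were of mixed function. PLS3, an actin-bundling plastin, had no count in any CT-BR-ER library and 3.81, 4.39 and 4.79 CPM in CT-ER, at least 56.1-fold lower in CT-BR-ER when set against a floor of 3 counts per library. DPYD, the enzyme that breaks down pyrimidines and fluorouracil, was at 0.121, 0.0271 and 0.0786 CPM against 7.29, 6.27 and 7.55 CPM (−6.45, SE 0.27, edgeR adjusted p = 3.28e-13). MME, a membrane peptidase of prostate epithelium, was at 0.267, 0.163 and 0.105 CPM against 9.26, 8.44 and 10.6 CPM (−5.68, SE 0.19, edgeR adjusted p = 1.28e-15). PLS3 and DPYD were also at or near 0 in CT-BR, CT and T, while MME had a mean of 19.4 CPM in T.

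The neighbouring genes CSAG1 and MAGEA12, cancer-testis genes of the X chromosome, were high in CT-ER as well. CSAG1 was at 0.0243, 0.0542 and 0.0786 CPM in CT-BR-ER and 7.31, 8 and 8.35 CPM in CT-ER (−7.17, SE 0.23, edgeR adjusted p = 5.67e-16). MAGEA12 was at 0.219, 0.217 and 0.131 CPM against 12.4, 11.2 and 13.2 CPM (−5.99, SE 0.23, edgeR adjusted p = 1.02e-14). In a list of such genes drawn up after these values were seen, 8 were measured, of which 4 were called lower and 2 higher, with a median of −0.59. MAGEA6 was one of the higher ones (2.92, SE 0.39), and reads of the MAGEA genes can be split between close copies.

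The tip of the short arm of chromosome 5 stood out among the genes higher in CT-BR-ER. Positions follow the annotation used for counting, on GRCh38. From PLEKHG4B at base 92151 to the end of IRX2-DT at base 2755397, 34 genes were tested, of which 33 were higher and 1 was lower in CT-BR-ER. Their median log2 fold change was 2.93, a fold of 7.65, with quartiles of 2.66 and 3.13. From ICE1 at base 5420664 to base 17354624, 34 of 43 tested genes were higher and 0 lower, with a median of 1.02, a fold of 2.03, and quartiles of 0.65 and 1.29. The median of the other 837 tested genes of the chromosome was 0.14. The borders of these segments were set after the values were seen. CPM summed over the first segment were 3601, 3730.0 and 3629.7 in CT-BR-ER and 464, 453 and 439 in CT-ER, so that the 3 libraries of each subline were close to each other. The means of the other sublines were 592 CPM in CT-BR, 596 CPM in CT and 597 CPM in T, and the median log2 fold change of CT-BR over CT in the segment was −0.04.

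Genes of unrelated function took part in the same step. SDHA, the flavoprotein of succinate dehydrogenase (base 218241 to 256700), measured 822, 842 and 809.6 CPM in CT-BR-ER and 97.2, 93.8 and 90.9 CPM in CT-ER (3.13, SE 0.05, edgeR adjusted p = 4.32e-21). TRIP13, an ATPase of the spindle checkpoint (base 892643 to 919357), measured 399, 398 and 393 CPM against 37.4, 34.5 and 36.1 CPM (3.46, SE 0.05, edgeR adjusted p = 6.7e-22). NDUFS6, a subunit of respiratory complex I, measured 285, 322 and 302 CPM against 46.2, 43.2 and 45.2 CPM (2.76, SE 0.07, edgeR adjusted p = 3.5e-18). No library of one subline came near the other subline at these genes, and pseudogenes of SDHA elsewhere in the genome could take some of its reads.

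Less abundant members of the segment were higher as well. PLEKHG4B, an exchange factor for small GTPases and the first gene of the arm to be tested, measured 42, 40.3 and 41 CPM in CT-BR-ER and 0.704, 0.731 and 0.845 CPM in CT-ER (5.76, SE 0.13, edgeR adjusted p = 9.07e-19). AHRR, the repressor of the aryl hydrocarbon receptor, measured 12, 14.6 and 12.2 CPM against 1.04, 1.3 and 1.12 CPM (3.49, SE 0.13, edgeR adjusted p = 9e-15). IRX2, an Iroquois homeobox factor near the end of the segment, measured 28.7, 26.9 and 24.9 CPM against 2.49, 2.46 and 2.43 CPM (3.45, SE 0.09, edgeR adjusted p = 1.76e-17). Exons of AHRR and TRIP13 overlap those of neighbours that moved in the same direction. TERT, the catalytic subunit of telomerase, was looked up in the segment after its values were seen, and measured 3.74, 2.87 and 2.86 CPM against 0.58, 0.209 and 0.273 CPM (3.13, SE 0.26). DNA copy number was not analysed here, and the part of copy number in these levels was not tested.

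**Figure D3:**
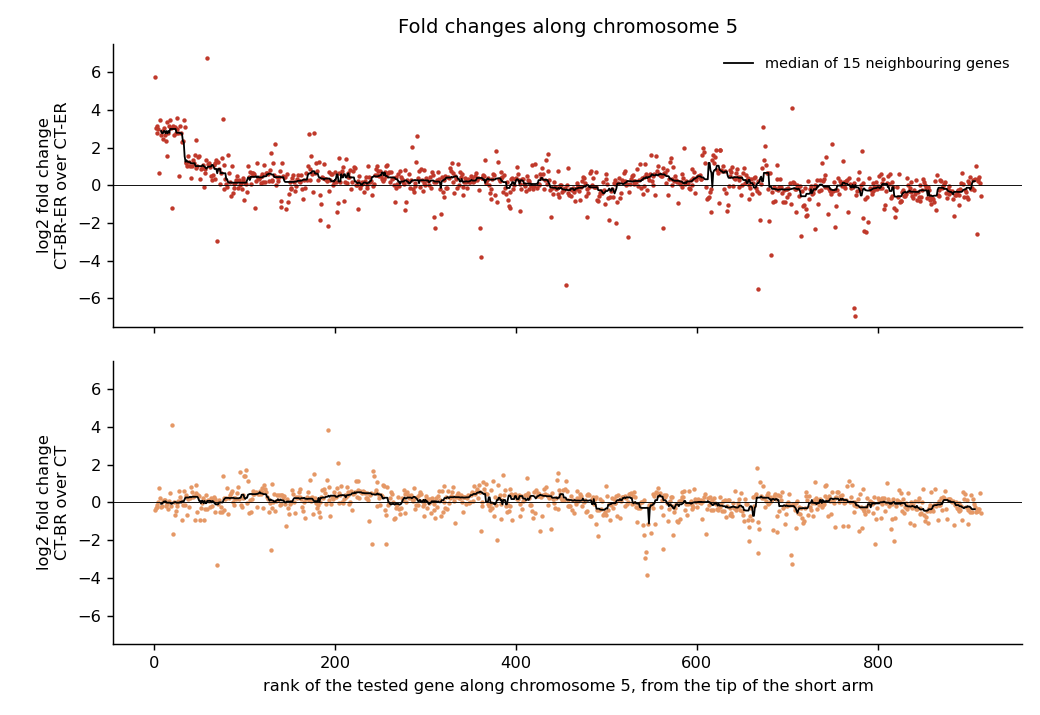
Log2 fold change of CT-BR-ER over CT-ER (upper panel, red) and of CT-BR over CT (lower panel, orange) for the tested genes of chromosome 5 in their order along the chromosome (x axis, rank from the tip of the short arm), with a running median of 15 genes in black. The first 34 genes sit near 2.93 in the upper panel and near 0 in the lower one, and the next 43 near 1.02.

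Shifts over whole windows were seen at a few more places, all smaller. Of 301 windows of 10 Mb with at least 10 tested genes, 10 had a median of at least 0.4 in either direction, 2 of them at the tip of chromosome 5. In the window from 20 to 30 Mb of chromosome 17, 52 of 86 tested genes were higher and 3 lower in CT-BR-ER, with a median of 0.52, among them KCNJ12, a potassium channel (2.08, SE 0.12). On chromosome 21, 51.3% of the tested genes were higher and 8% lower. Its medians were 0.40 at 0 to 10 Mb, 0.50 at 20 to 30 Mb and 0.42 at 40 to 50 Mb, where the secreted mucosal peptide TFF3 lies (1.73, SE 0.20). The window from 0 to 10 Mb held 11 tested genes, 4 higher and 0 lower, and some of its genes are annotated as artefacts of the assembly. From 10 to 20 Mb, 3 of 21 tested genes were higher and 8 lower, with a median of −0.04. The window from 50 to 60 Mb of chromosome 5 had a median of 0.43 and holds PARP8, an ADP-ribosyltransferase (2.71, SE 0.09), and that from 100 to 110 Mb of chromosome 13 had a median of 0.47 and holds TMTC4, of the endoplasmic reticulum (1.08, SE 0.05).

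Windows lower in CT-BR-ER were on chromosomes 11 and 7. From 50 to 60 Mb of chromosome 11, 28 of 44 tested genes were lower and 3 higher, with a median of −0.50, and GLYAT, which conjugates glycine, was at means of 0.0346 CPM in CT-BR-ER and 0.512 CPM in CT-ER (−3.78, SE 0.54). From 110 to 120 Mb of chromosome 7, 15 of 24 were lower and 2 higher, with a median of −0.47, and CFTR, the chloride channel mutated in cystic fibrosis, was at 0.407 CPM against 1.96 CPM (−2.26, SE 0.28), with exons that overlap a neighbour. Over whole chromosomes, 44.3% of the tested genes of chromosome 14 were lower and 8.2% higher, with a median of −0.26. Of those of chromosome 7, 38.4% were lower and 10.8% higher, with a median of −0.19. Over all genes tested, 22.7% were lower and 23.3% higher.

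Genes of mitosis and of ribosome assembly were more often higher in CT-BR-ER. Of 57 tested genes of mitosis and the spindle, 38 were higher (66.7%) and 4 lower (7.02%), with a median of 0.24. CCNB1, the cyclin that starts mitosis, measured 319, 316 and 323 CPM in CT-BR-ER and 156, 147 and 161 CPM in CT-ER (1.05, SE 0.06, edgeR adjusted p = 1.73e-12). MKI67, the proliferation marker, measured 374, 343 and 369 CPM against 203, 202 and 218 CPM (0.80, SE 0.07, edgeR adjusted p = 1.55e-08). Both were without overlap. Of 44 genes of ribosome biogenesis, 32 were higher (72.7%) and 2 lower (4.55%), with a median of 0.27, led by NAT10, an acetyltransferase of ribosomal RNA (0.62, SE 0.04, edgeR adjusted p = 2.21e-10), and no member differed by 2-fold.

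Other genes of growth control were split. Of 58 genes of DNA replication, 18 were higher and 13 lower (median 0.04), and of 41 genes of DNA repair, 8 were higher and 6 lower (median −0.02). Of 26 tested regulators of the G1 phase, 11 were higher and 10 lower. CCND1, the G1 cyclin, measured 544, 536 and 537 CPM in CT-BR-ER and 1194, 1147 and 1158 CPM in CT-ER (−1.11, SE 0.04, edgeR adjusted p = 3.13e-15). BTG1, an antiproliferative factor, measured 68.4, 65.7 and 72.5 CPM against 244, 240.3 and 258 CPM (−1.84, SE 0.06, edgeR adjusted p = 7.38e-16), and CDKN2B, an inhibitor of CDK4 and CDK6, measured 2.24, 2.36 and 2.7 CPM against 6.73, 6.64 and 7.63 CPM (−1.52, SE 0.13, edgeR adjusted p = 2.38e-09). So a cyclin of G1 and inhibitors of proliferation were both lower in CT-BR-ER. The median over 29 tested histones of S phase was −0.05, with 9 higher and 7 lower, in a family of close copies. Of 18 tested BCL2 family genes, 3 were higher and 4 lower.

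**Figure D4:**
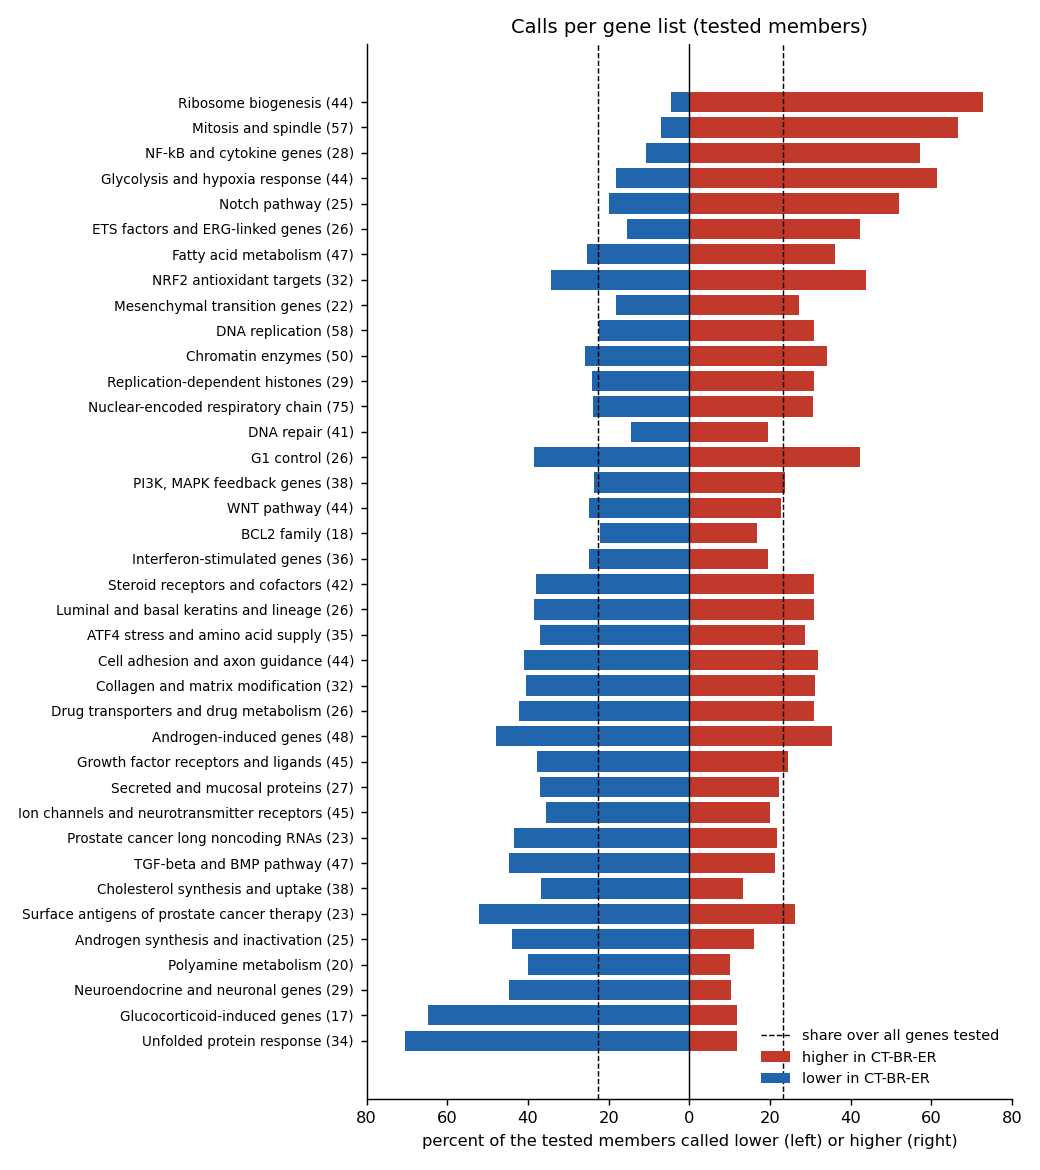
Percent of the tested members of each gene list that were called higher (red, right) or lower (blue, left) in CT-BR-ER, with the number of tested members in brackets, for lists with at least 15 of them other than the study's signatures and the lists drawn up later. The dashed lines mark the share over all genes tested, 23.3% higher and 22.7% lower. Ribosome biogenesis and mitosis lie at the top, the unfolded protein response and glucocorticoid-induced genes at the bottom.

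Glycolytic and hypoxia-linked genes leaned towards CT-BR-ER, and genes of the endoplasmic reticulum towards CT-ER. Of 44 tested genes of glycolysis and the hypoxia response, 27 were higher (61.4%) and 8 lower (18.2%), with a median of 0.26. LDHA, which makes lactate, measured 469.9, 502 and 505 CPM in CT-BR-ER and 269, 273 and 289 CPM in CT-ER (0.83, SE 0.05, edgeR adjusted p = 2.6e-11). EPAS1, which encodes the hypoxia factor HIF-2-alpha, was one of the lower members, at 16.6, 18.9 and 17.6 CPM against 57.2, 57 and 59.8 CPM (−1.71, SE 0.07, edgeR adjusted p = 2.19e-14), and HIF1A was lower too (−0.57, SE 0.05). PLOD2, a lysyl hydroxylase for collagen that hypoxia induces, measured 60.7, 62.8 and 66.4 CPM against 187, 172 and 215 CPM (−1.60, SE 0.08, edgeR adjusted p = 3.51e-13). Its means of 1.49 CPM in CT-BR, 0.531 CPM in CT and 2.89 CPM in T were below those of both endpoints.

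Of 34 tested genes of the unfolded protein response, 4 were higher (11.8%) and 24 lower (70.6%) in CT-BR-ER, with a median of −0.26. AGR2, a disulfide isomerase of secretory cells, measured 347, 344 and 368 CPM in CT-BR-ER and 859, 836 and 969 CPM in CT-ER (−1.33, SE 0.08, edgeR adjusted p = 5.61e-12). CANX, a lectin chaperone, measured 1216, 1127 and 1209.9 CPM against 1895, 1902 and 2119 CPM (−0.74, SE 0.05, edgeR adjusted p = 2.42e-10). HSPA5, the main chaperone of the compartment, differed less (−0.25, SE 0.05), and XBP1, a factor that drives this response, did not pass the threshold (0.08, SE 0.05, edgeR adjusted p = 0.198). Of 35 genes of the ATF4 stress response and amino acid supply, 10 were higher and 13 lower (median −0.07), and DDIT3, its pro-apoptotic factor, was lower in CT-BR-ER (−1.04, SE 0.06). DDIT3 shares exon sequence with a neighbouring gene.

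NQO1, a quinone reductase that NRF2 switches on, measured 3.96, 4.36 and 3.67 CPM in CT-BR-ER and 0.0828, 0.0627 and 0.149 CPM in CT-ER (5.34, SE 0.22, edgeR adjusted p = 2.21e-14). The groups lay far apart, and the mean was 17.7 CPM in T. Of all 32 tested NRF2 targets, 14 were higher and 11 lower with a median of −0.01, and GPX2, an intestinal glutathione peroxidase, was lower in CT-BR-ER (−1.61, SE 0.13). Of 75 genes of the nuclear-encoded respiratory chain, 23 were higher and 18 lower (median 0.03), and the 2 that differed by 2-fold or more were SDHA and NDUFS6 of the chromosome 5 segment. Of the 13 protein-coding genes of the mitochondrial genome, 3 were higher and 4 lower.

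Ligands of the TGF-beta family differed in both directions. INHBA, the subunit of activin A, had means of 18.8 CPM in CT-BR and 15.3 CPM in CT, and measured 11.2, 11.2 and 11.2 CPM in CT-BR-ER and 0.58, 0.606 and 0.646 CPM in CT-ER (4.19, SE 0.16, edgeR adjusted p = 1.13e-14). FST, the secreted inhibitor of activin, was at 0.753, 0.868 and 0.708 CPM against 0.104, 0.125 and 0.0993 CPM (2.78, SE 0.34, edgeR adjusted p = 1.92e-06), a low level in both sublines. BMP2 was instead lower in CT-BR-ER, with means of 4.49 CPM and 15.9 CPM (−1.82, SE 0.08, edgeR adjusted p = 5.94e-14). ID1 and ID3, inhibitors of differentiation that BMP signals induce, were lower as well, at −1.63 (SE 0.16) and −1.37 (SE 0.15). Of 47 tested genes of the TGF-beta and BMP pathway, 10 were higher and 21 lower, with a median of −0.18.

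Of 25 tested genes of the Notch pathway, 13 were higher (52%) and 5 lower (20%), with a median of 0.30. JAG1, a Notch ligand on neighbouring cells, measured 111, 107 and 109 CPM in CT-BR-ER and 21.1, 19.2 and 20.5 CPM in CT-ER (2.42, SE 0.06, edgeR adjusted p = 9.88e-18). MAML2, a coactivator, measured 4.42, 3.96 and 4.09 CPM against 0.787, 1.21 and 1.02 CPM (2.05, SE 0.15, edgeR adjusted p = 3.31e-10). Neither gene overlapped between the groups. The means of JAG1 were 93.2 CPM in CT-BR and 90.9 CPM in CT, so that CT-ER was the subline that stood apart. Of the target genes, HEY2 was higher (2.09, SE 0.40) and HES1 differed by −0.12 (SE 0.12, edgeR adjusted p = 0.419).

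Of 45 tested growth factors and receptors, 11 were higher and 17 lower in CT-BR-ER, with a median of 0.00. RET, the receptor of the GDNF family, measured 2.33, 2.17 and 2.12 CPM in CT-BR-ER and 0.248, 0.272 and 0.348 CPM in CT-ER (2.94, SE 0.19, edgeR adjusted p = 3.94e-11). EPHA7, an ephrin receptor, was at 0.0243, 0.136 and 0.157 CPM against 2.4, 2.26 and 2.68 CPM (−4.52, SE 0.25, edgeR adjusted p = 3.64e-12). IGF1R, the receptor of insulin-like growth factor, was lower too, with means of 264 CPM and 688 CPM (−1.38, SE 0.06, edgeR adjusted p = 2.13e-14). YAP1, the coactivator of the Hippo pathway, measured 46.7, 44.7 and 46.2 CPM against 8.76, 6.68 and 8.59 CPM (2.52, SE 0.09, edgeR adjusted p = 2.67e-15), and its means in CT-BR, CT and T were at most 3.03 CPM.

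The immediate-early genes EGR1 and FOS were lower in CT-BR-ER. EGR1, a factor that growth signals induce within minutes, measured 46, 52.6 and 48.9 CPM in CT-BR-ER, and its mean in CT-ER was 232 CPM, with 174 CPM in the lowest library (−2.24, SE 0.13, edgeR adjusted p = 8.47e-12). FOS measured 42.9, 47.7 and 36 CPM against 209.8, 110.5 and 145 CPM (−1.88, SE 0.18, edgeR adjusted p = 2.01e-08). The lowest CT-ER library stayed above the highest CT-BR-ER library at both genes. Of 38 tested feedback genes of the PI3K and MAPK pathways, 9 were higher and 9 lower, 23.7% each way (median 0.03). These shares are near those over all genes tested. Of 44 WNT pathway genes, 10 were higher (22.7%) and 11 lower (25%), again near the shares over all genes, with a median of −0.07. LEF1, the transcription factor of this list, measured 127, 135 and 125 CPM against 268, 277 and 282 CPM (−1.10, SE 0.04, edgeR adjusted p = 2.19e-14). The ligand WNT5B was higher in CT-BR-ER (1.91, SE 0.20).

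Cytokine-related genes leaned towards CT-BR-ER. Of 28 tested NF-kB and cytokine genes, 16 were higher (57.1%) and 3 lower (10.7%), with a median of 0.46. SOCS2, a feedback inhibitor of cytokine signalling, measured 111, 106 and 113 CPM in CT-BR-ER and 22.5, 22.8 and 23.4 CPM in CT-ER (2.26, SE 0.06, edgeR adjusted p = 5.15e-18). TNFSF10, the death ligand TRAIL, measured 7.22, 5.67 and 6.84 CPM against 1.59, 1.48 and 1.59 CPM (2.08, SE 0.12, edgeR adjusted p = 4.09e-12), and OSMR, the oncostatin M receptor, 21.7, 22.3 and 22.5 CPM against 9.61, 9.25 and 10.9 CPM (1.16, SE 0.07, edgeR adjusted p = 5.18e-12). NFKB2 (0.77, SE 0.08) and the deubiquitinase TNFAIP3 (1.13, SE 0.12) were higher as well. Of 36 interferon-stimulated genes, 7 were higher and 9 lower (median 0.05), with IFITM3, an antiviral membrane protein, at 2.31, 2.66 and 2.73 CPM against 0.0414, 0.167 and 0.0497 CPM (4.81, SE 0.33, edgeR adjusted p = 1.16e-10), a gene with close copies.

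Antigen presentation could be read only in part, since 20 of its 31 genes were not tested. Of the 11 tested, 2 were higher and 6 lower in CT-BR-ER, with a median of −0.22. B2M, the light chain of class I molecules, measured 44.5, 47.6 and 47.8 CPM in CT-BR-ER and 87.7, 87 and 98 CPM in CT-ER (−0.96, SE 0.06, edgeR adjusted p = 6.98e-11). Among 23 tested surface antigens that prostate cancer therapies aim at, 6 were higher and 12 lower (median −0.13). TMEFF2, a transmembrane proteoglycan, measured 136, 129.8 and 131 CPM against 544, 545 and 554 CPM (−2.05, SE 0.05, edgeR adjusted p = 1.3e-17), STEAP2 was lower (−0.60, SE 0.05), and FOLH1, the prostate-specific membrane antigen, differed by 0.25 (SE 0.08, edgeR adjusted p = 0.0177) with overlapping groups.

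Lineage and matrix genes were mixed. Of 26 tested keratins and lineage genes, 8 were higher and 10 lower, and KRT19, a simple epithelial keratin, measured 14.3, 13.4 and 13.9 CPM in CT-BR-ER and 77.2, 71 and 69.4 CPM in CT-ER (−2.38, SE 0.06, edgeR adjusted p = 1.3e-17). Of 22 genes of mesenchymal transition, 6 were higher and 4 lower, and the hyaluronan receptor CD44 measured 20.4, 20.3 and 21.2 CPM against 6.54, 7.1 and 6.61 CPM (1.61, SE 0.06, edgeR adjusted p = 1.79e-14). COL11A1, a fibrillar collagen chain, was at 8.62, 8.05 and 7.24 CPM against 0.0828, 0.313 and 0.497 CPM (4.78, SE 0.27, edgeR adjusted p = 9.59e-10), and had no count in CT-BR, CT and T. Of 32 genes of collagen and matrix modification, 10 were higher and 13 lower (median 0.02).

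The gene most raised in CT-BR-ER was SPATA18, which takes part in the quality control of mitochondria. SPATA18 measured 20.2, 19.6 and 20.3 CPM in CT-BR-ER and 0, 0.0627 and 0 CPM in CT-ER, a ratio of 886 with a 95% exact binomial interval of 303 to 4300.2 that covers counting error only. Its means in CT-BR, CT and T were at most 0.00826 CPM. XK, a membrane protein of red cells, measured 15.8, 19.5 and 16.6 CPM against 0.497, 0.501 and 0.224 CPM (5.36, SE 0.17, edgeR adjusted p = 2.51e-16). PTN, the growth factor pleiotrophin, measured 6.32, 7.94 and 6.61 CPM against 0.269, 0.188 and 0.149 CPM (5.06, SE 0.22, edgeR adjusted p = 6.06e-13). NHLH2, a neuronal transcription factor, measured 6.9, 6.13 and 6.58 CPM against 0.476, 0.355 and 0.621 CPM (3.77, SE 0.17, edgeR adjusted p = 1.17e-13). PTN was near 0 in the earlier sublines, as SPATA18 was, whereas XK had means of 24.8 CPM in CT-BR and 17.1 CPM in CT.

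Of 23 tested long noncoding RNAs of prostate cancer, 5 were higher and 10 lower, with a median of −0.17. PCAT1, transcribed from the gene desert beside MYC, measured 548, 538 and 549 CPM in CT-BR-ER and 44.5, 45.3 and 45.1 CPM in CT-ER (3.60, SE 0.05, edgeR adjusted p = 6.7e-22), beside means of 816 CPM in CT-BR and 539 CPM in CT. PCGEM1 had 3 counts in all over the CT-BR-ER libraries, at 0.0243, 0.0271 and 0.0262 CPM, and 2.36, 2.74 and 3.75 CPM in CT-ER. Exons of both overlap other genes, and without strand such reads cannot be assigned.

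As the study describes them, CT-BR was obtained from CT under bicalutamide, before the last step with ENZ. The label of CT-BR mentions ENZ as well, so that its drug history is not settled here. The comparison of CT-BR with CT shares no library with that of the endpoints. Of the 19621 genes, 10429 were called between CT-BR and CT (53.2%), 5127 higher (26.1%) and 5302 lower (27%) in CT-BR, and 2925 were called the same way in both comparisons. These made up 32.4% of the calls between the endpoints and 28% of the calls between CT-BR and CT. A further 2675 genes were called in opposite ways, and 3414 genes called between the endpoints were not called between CT-BR and CT. Among the 695 genes higher in CT-BR-ER by 2-fold or more, 137 were higher (19.7%) and 277 lower (39.9%) in CT-BR than in CT. Among the 1216 genes lower by as much, 334 were lower (27.5%) and 192 higher (15.8%). The difference of the 2 comparisons, tested in the same fit, was called at 9753 genes (49.7%), 6077 of them among the 9014 called between the endpoints (67.4%). This difference contains the comparison of the endpoints itself, which favours the genes called there, so that the 67.4% is a description only.

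Individual genes fell into each class. KLK3 and KLK2 were lower in the subline with bicalutamide in its history in both comparisons, KLK3 by −3.70 between the endpoints and −1.23 in CT-BR over CT, and KLK2 by −1.34 and −0.63. CCNB1 (1.05 and 1.10), MKI67 (0.80 and 0.91) and EGR1 (−2.24 and −2.49) had like values in both, and their differences of −0.05 (SE 0.08, edgeR adjusted p = 0.617), −0.11 (SE 0.10, edgeR adjusted p = 0.394) and 0.25 (SE 0.21, edgeR adjusted p = 0.337) did not pass the threshold. Over the list of mitosis and spindle genes, 56 of 57 were higher in CT-BR than in CT, with a median of 0.89, beside 26.1% of all genes tested. Of 44 genes of ribosome biogenesis, 22 were higher and 3 lower in CT-BR (median 0.18). Other lists that leaned towards CT-BR-ER went the other way in CT-BR over CT. Of 28 NF-kB and cytokine genes, 3 were higher and 17 lower there (median −0.52). Of 25 Notch genes, 2 were higher and 18 lower (median −0.46). NR3C1 was lower in CT-BR-ER (−1.86) and higher in CT-BR (1.08), and PLOD2 likewise (−1.60 and 1.49). For BEX1 the value was −1.45 in CT-BR over CT (edgeR adjusted p = 0.342) and for JAG1 0.04 (edgeR adjusted p = 0.626), beside −7.65 and 2.42 between the endpoints.

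**Figure D5:**
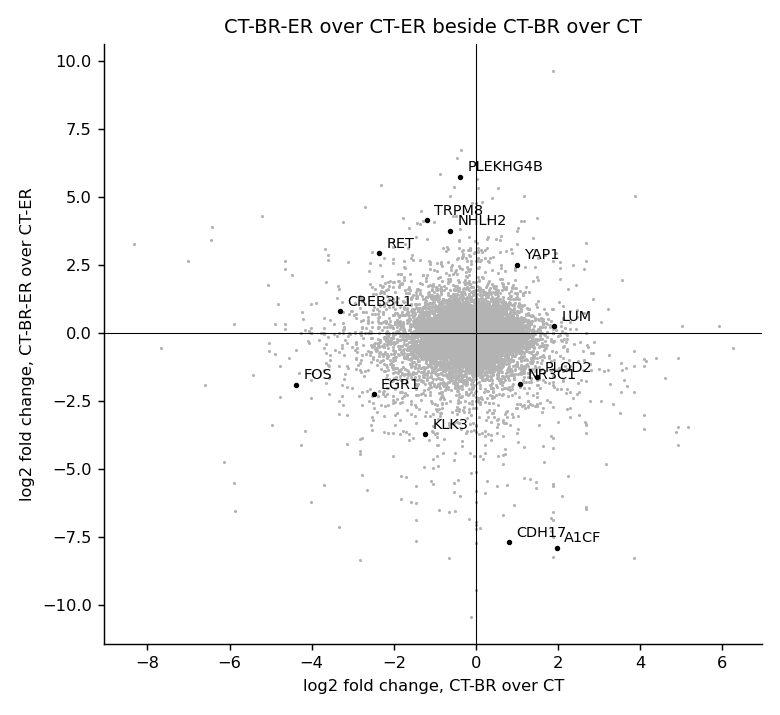
Log2 fold change of CT-BR-ER over CT-ER (y axis) against that of CT-BR over CT (x axis), one grey point per gene tested and black points for labelled genes. KLK3, EGR1 and FOS are lower in both, NR3C1, PLOD2, A1CF and CDH17 lie in the lower right, and TRPM8 and PLEKHG4B in the upper left.

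The signatures that the study scored came from earlier publications, public collections or its own single-cell data, and are described by their counts. Of 20 tested genes of the androgen activity signature, 3 were higher and 13 lower in CT-BR-ER, with a median of −0.34, KLK3 and KLK2 among the lower ones. The count of 3 higher was 1 with DESeq2 and 0 with no filter on low counts. Of 17 genes of the Persist signature, 12 were higher and 1 lower (median 0.28), and it shares genes such as CCNB1 and MKI67 with the mitosis list. Of 75 PROSGenesis genes, 18 were higher and 34 lower (median −0.19), and of 168 genes of the ENZ-induced clusters, 47 were higher and 68 lower (median −0.06). MYC targets counted 29 higher and 4 lower of 57 (median 0.17), and mTORC1 genes 14 higher and 12 lower of 36 (median 0.04). Genes raised in neuroendocrine prostate cancer counted 7 higher and 10 lower of 34 (median −0.08), and genes lowered in it 5 higher and 16 lower of 27 (median −0.25).

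The remaining lists held few tested genes, were mixed, or leaned one way with a small median log2 fold change. Markers of prostate epithelium counted 3 higher and 4 lower of 12 (median −0.05), of fibroblasts 2 higher and 2 lower of 5 (median −0.04), of endothelium 0 higher and 1 lower of 4 (median −0.28), and of leukocytes 0 higher and 1 lower of 4 (median −0.41). Of 26 tested genes of drug transport and metabolism, 8 were higher and 11 lower (median −0.14), with SLC22A3, an organic cation transporter, at means of 3.42 CPM in CT-BR-ER and 21.3 CPM in CT-ER (−2.64, SE 0.08, edgeR adjusted p = 2.9e-16). Cholesterol genes counted 5 higher (13.2%) and 14 lower (36.8%) of 38 (median −0.08), beside 23.3% and 22.7% of all genes tested. Polyamine genes counted 2 higher (10%) and 8 lower (40%) of 20 (median −0.07), and fatty acid genes 17 higher and 12 lower of 47 (median −0.02). ETS factors and genes linked to ERG counted 11 higher (42.3%) and 4 lower (15.4%) of 26 (median 0.10). Chromatin enzymes counted 17 higher and 13 lower of 50 (median 0.04), and secreted and mucosal proteins 6 higher and 10 lower of 27 (median −0.09). HDAC9, a histone deacetylase, was at means of 1.9 CPM and 0.3 CPM (2.64, SE 0.21, edgeR adjusted p = 1.42e-09), and DGAT2, which completes triglyceride synthesis, was lower in CT-BR-ER (−1.73, SE 0.06, edgeR adjusted p = 2.36e-15).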

How the data were processed

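Per the labels, RNA of the VCaP sublines was sequenced on an Illumina HiSeq instrument. The deposited values are raw counts per gene that the authors made with featureCounts 1.6.2 on GENCODE release 28 from STAR 2.5.4b alignments (GRCh38), without normalization. Symbols were matched by Ensembl identifier to GENCODE release 44 (57799 of 58381 genes, 99.0%). All 15 libraries were fitted with edgeR 4.0.16 in R 4.3.3, with a term per subline, TMM scaling, a filter on low counts (filterByExpr, minimum 10) that left 19621 genes, the quasi-likelihood test and Benjamini-Hochberg adjustment at 0.05, tested on simulated data. Totals lay between 33665716 and 46935279 counts, and floors of 3 counts and intervals cover counting error only. The comparison, the 52 gene lists and the rule for named genes were chosen with earlier results of these data known. Named were the 12 highest and 12 lowest protein-coding called genes without overlap at an average log2 CPM of at least 1, up to 4 called genes of each list, up to 3 of each window described, and set markers of resistance. Other list members were named after their values were seen, to show genes that did not move or moved the other way. Alternatives were DESeq2 1.42.0, upper-quartile scaling, other filters, fewer sublines, protein-coding genes only, a replicate block and each library left out. Same-numbered libraries of CT-BR-ER and CT-ER were not treated as pairs. Some genes of the lists are not reported here by name.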

Additional observations from a re-analysis of the deposited data

Results flagged for a closer look

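The difference between the sublines with and without bicalutamide in their history was not the same between the ENZ-resistant endpoints and between CT-BR and CT. Tested as the difference of the 2 contrasts in edgeR, 9753 genes passed an adjusted p of 0.05, and 2675 of them were called in opposite ways in the 2 contrasts. A gene called in opposite ways nearly always passes this test, so that the 2675 are no separate result. The test also contains the endpoint contrast, which favours genes named for a large difference between the endpoints. Among the genes named for their size or as markers, the difference was −9.85 (log2, SE 0.51) for A1CF, −8.48 (SE 0.48) for CDH17, −2.94 (SE 0.20) for NR3C1, −3.09 (SE 0.24) for PLOD2 and −0.80 (SE 0.07) for FKBP5. These were lower in CT-BR-ER than in CT-ER and higher in CT-BR than in CT. The difference was 6.14 (SE 0.20) for PLEKHG4B, 5.35 (SE 0.15) for TRPM8, 4.39 (SE 0.25) for NHLH2 and 0.70 (SE 0.07) for TMPRSS2, which were higher in CT-BR-ER and lower in CT-BR. The label of CT-BR mentions ENZ as well, so that the drugs of the 2 contrasts and the separate derivation of each subline cannot be told apart.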

How the results depend on the processing

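The count of genes called between the endpoints lay between 7404 and 9300 under the other settings, and that of genes called the same way in CT-BR against CT between 2725 and 2922. Of the counts over all genes, that of genes called at 2-fold or more moved by more than 1.5 times, to 888 with at least 10 counts required in every library instead of 1911. With 1 library left out, genes called between the endpoints numbered 7929 to 9325 (3901 to 4688 higher, 4007 to 4877 lower), at 2-fold or more 1881 to 2026, the same way in CT-BR against CT 2477 to 3054, and in the difference of the contrasts 9029 to 9817. Same-numbered libraries of CT-BR-ER and CT-ER correlated at −0.110, 0.209 and 0.379 in their deviations from the group means. Differently numbered ones correlated at −0.425 to 0.358. With 3 libraries a subline, these values cannot decide whether the numbers pair the libraries. The replicate block gave 8990 called genes. Of 4031 values of the 229 named genes under the alternatives, 3999 kept their direction and side of the threshold, 32 missed the threshold and 0 reversed, and the genes that missed it were ACTA2, CD274, CST2, H1-4, KRT15, LOXL4, LUM, NNMT, NPC1L1, SAMD9 and WNT3A. Of the androgen activity signature, 1 gene with DESeq2 and 0 with no filter on low counts were called higher, instead of 3. The median log2 fold change over all genes lay between −0.02 and 0.00 under the scalings and filters. Genes near 0 in one subline are limited by depth, since 3 counts are 0.0639 to 0.0808 CPM in these libraries.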
